A study of Mus musculus with 24 samples.

Results

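The expression of 10 genes that encode receptors of natural killer (NK) and natural killer T (NKT) cells, or that specify these cells, was followed in mouse skin. They were Klrb1c, Klrd1, Klrk1, Klrc1, Klrc2, Klre1, Ncr1, Cd160, Il2rb and Zbtb16, chosen by gene symbol, and all 10 were found among the 27180 features of the count files. RNA of whole skin was sequenced in 24 libraries, 3 in each of 8 groups. Ear skin came from C57BL/6 mice (C57) and from K14E7 mice (E7) on the C57BL/6 background at 8 weeks of age. K14E7 mice carry the E7 oncoprotein of human papillomavirus 16 behind the keratin 14 promoter, which is active in basal keratinocytes. The grafts were ear skin of C57, E7 or CD1dKOxE7 donors on C57BL/6 recipients, taken 14 or 28 days post grafting (dpg). CD1dKOxE7 donors carry both the E7 transgene and a CD1d knockout (CD1d-/-). Every recipient was C57BL/6, so recipient cells of a graft had the CD1d genes of the wild type whatever the donor. The labels do not name the animals behind the libraries, and the p-values below measure the spread between these libraries.

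NK cells kill infected or stressed cells and read their targets through activating and inhibitory receptors, many of which are C-type lectins encoded together in the NK gene complex. NKT cells are T cells whose receptor recognises lipids on CD1d, and in C57BL/6 mice they share NK1.1, the product of Klrb1c, with NK cells. Most of the receptors are not restricted to these cells: activated CD8 T cells and gamma delta T cells of skin can carry NKG2D (Klrk1), CD94 (Klrd1) and the IL-2 receptor beta chain (Il2rb). In whole tissue, fewer cells of a type and less RNA per cell cannot be told apart.

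Of the members, 6 lie on chromosome 6 of the mouse genome (GRCm38), where Klre1, Klrd1, Klrk1, Klrc2 and Klrc1 follow each other between 129559365 and 129682852. Klrb1c lies at 128778485 to 128788641 of the same chromosome. Outside it are Ncr1 (chromosome 7, 4337715 to 4345184), Cd160 (chromosome 3, 96798763 to 96829351), Il2rb (chromosome 15, 78479256 to 78511621) and Zbtb16 (chromosome 9, 48651797 to 48836225). Some counts could be split between near copies: of the 50-base windows of the longest coding transcript, 40.26% in Klrc1, 30.09% in Klrc2 and 18.07% in Klrb1c occurred in another gene, against 0.75% in Zbtb16 and none in the other 6. Cd160 overlaps Pdzk1 on the opposite strand, and the sources used here do not give the strand of the reads.

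Library totals were 6550011 to 13814448 counts. Levels are CPM, counts scaled to a shared library size, on a single scale for all 24 libraries. Krt14, the keratin of basal keratinocytes, had group means of 3306 to 11835 CPM, and the tissue labels say skin. The E7 transgene was at 17.6 to 57.2 CPM in the libraries labelled E7 or CD1dKOxE7 and at 0 to 0.135 CPM in those labelled C57. Cd1d1, the gene of CD1d, did not follow the knockout label at 14 dpg: the libraries labelled CD1dKOxE7 had 13.6, 17.3 and 11.4 CPM, against 15.2, 14.3 and 16.8 CPM in E7 grafts. At 28 dpg replicates 1 and 2 labelled CD1dKOxE7 had 5.34 and 4.44 CPM of Cd1d1 and replicate 3 had 14.7 CPM, against 21.4 to 25.8 CPM in E7 grafts. Replicate 3 also stood apart in the E7 transgene (18.8 CPM against 44.1 and 44.4 CPM in the other two) and held the highest level of all 10 members in its group. The deleted part of Cd1d1 is not given in the labels, so its total count checks the label only in part, and the members' differences that rest on this group are also given without replicate 3. By the run names in the labels, grafts labelled CD1dKOxE7 were on lane 2 and C57 and E7 grafts on lane 1 of the same flow cell, and ear libraries were on another flow cell. Differences of grafts labelled CD1dKOxE7 from the other donors cannot be told apart from the lane, nor differences of grafts from ear from the flow cell.

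By its labels, the comparison of grafts labelled CD1dKOxE7 with E7 grafts is of donors with and without a CD1d knockout in skin that carries E7. Cd1d1 itself did not differ at 14 dpg (-0.13 on the log2 scale, edgeR adjusted p = 0.80), so the groups are described by their labels only, as libraries labelled CD1dKOxE7. At 14 dpg the 9 receptor genes all rose in the grafts labelled CD1dKOxE7, by 2.43 to 3.77 on the log2 scale, and their libraries did not overlap those of the E7 grafts. Zbtb16, which encodes the transcription factor PLZF that directs NKT cell development, did not pass the test. In this comparison 15.1% of all 16189 genes tested rose and 21.4% had higher, non-overlapping libraries. The median log2 fold change was 2.97 over the 10 members and -0.03 over all genes. Klrc1 and Klrc2 entered the test only through the high counts of the grafts labelled CD1dKOxE7 at 14 dpg. The other 8 members pass the count filter without that group, and 7 of those 8 rose. Of these, Klre1 passes it with 4 libraries, which include all grafts labelled CD1dKOxE7 at 28 dpg and no C57 graft. Its entry thus rests on grafts labelled CD1dKOxE7 of either day.

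**Figure D1:**
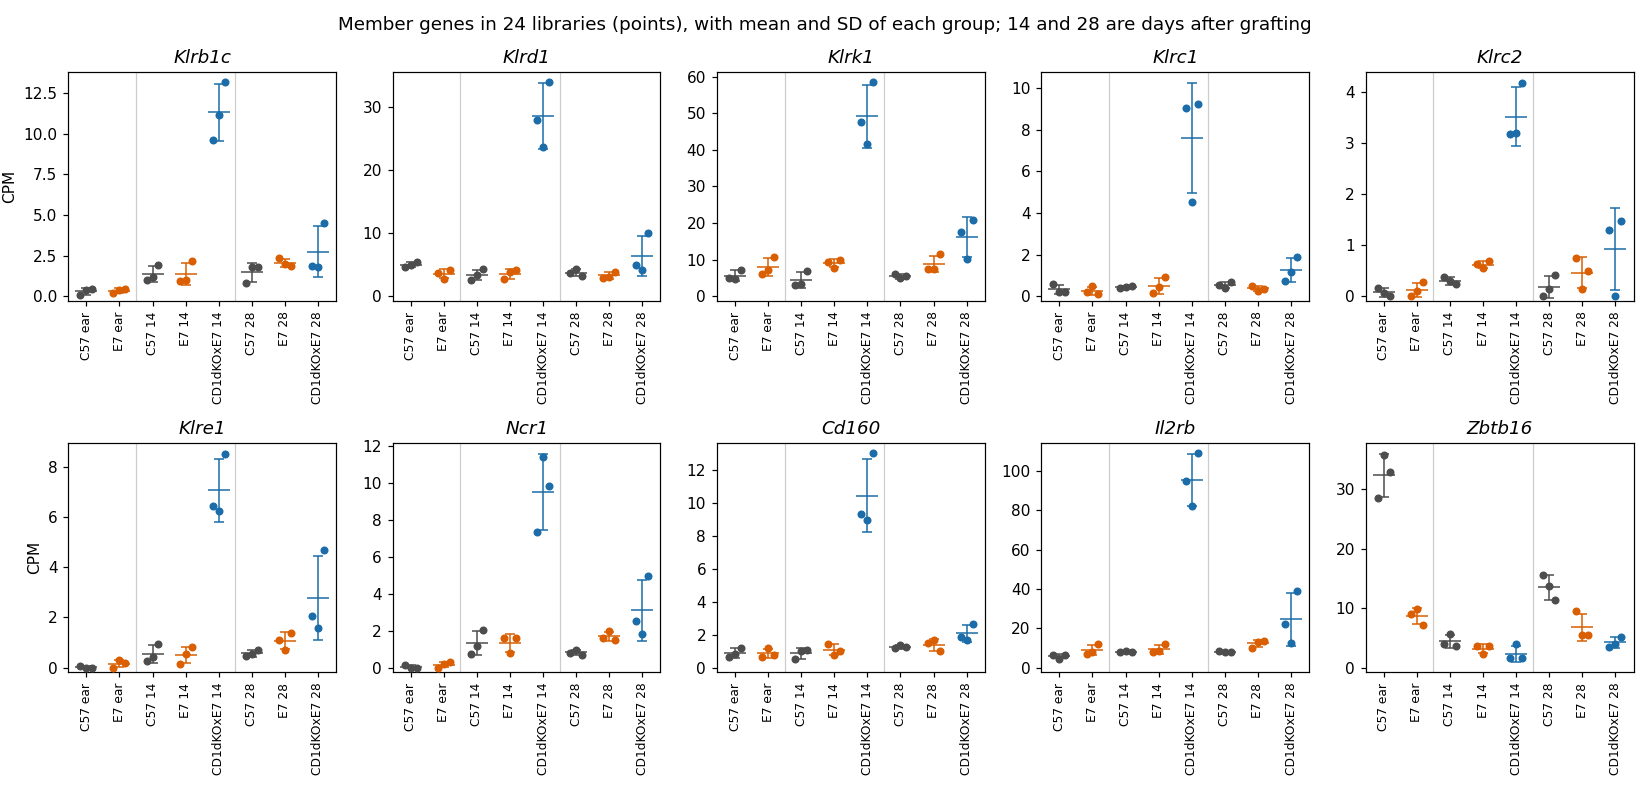
CPM of the 10 members in the 24 libraries (points), with the mean and SD of each group of 3 (horizontal bars with whiskers), for C57, E7 and CD1dKOxE7 skin in ear and in grafts at 14 and 28 dpg; the vertical axis of each panel is linear and differs between genes. The 9 receptors are highest in the grafts labelled CD1dKOxE7 at 14 dpg, and Zbtb16 is highest in C57 ear.

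Among the lectin receptors, Klrd1 encodes CD94, the common partner of the NKG2 chains that bind the nonclassical MHC molecule Qa-1. Klrd1 was at 28.02, 23.7 and 34.1 CPM in the grafts labelled CD1dKOxE7, at 2.70, 3.84 and 4.25 CPM in E7 grafts and at 2.65, 3.36 and 4.30 CPM in C57 grafts at 14 dpg. Each library labelled CD1dKOxE7 was far above all libraries of the other donors, which overlapped each other. Klrd1 rose by 2.95 ± 0.28 (log2 fold change ± SE; edgeR adjusted p = 4.10e-06) over E7 grafts. Klrc1, the inhibitory partner NKG2A, was at 9.05, 4.54 and 9.24 CPM against 0.159, 0.439 and 0.919 CPM in E7 grafts and rose by 3.77 ± 0.42 (adjusted p = 1.19e-05). Klrc2, the activating partner NKG2C, was at 3.18, 3.20 and 4.19 CPM against 0.635, 0.549 and 0.690 CPM and rose by 2.45 ± 0.60 (adjusted p = 0.00558). The groups did not overlap for either gene, but the E7 libraries held only 1 to 8 counts of Klrc1 and 4 to 6 of Klrc2.

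Klrk1 encodes NKG2D, an activating receptor for stress-induced ligands such as MULT1 (Ulbp1) and H60. It was at 47.5, 41.5 and 58.5 CPM in the grafts labelled CD1dKOxE7, at 9.52, 7.79 and 9.88 CPM in E7 grafts and at 3.16, 3.36 and 7.04 CPM in C57 grafts. The 3 donors were thus in the order CD1dKOxE7, E7, C57 with no overlap between neighbours, and 22.1% of all genes had higher, non-overlapping libraries in E7 than in C57 grafts. Klrk1 rose by 2.43 ± 0.27 (adjusted p = 1.46e-05) over E7 grafts. Klrb1c, whose product NK1.1 marks NK and NKT cells, was at 9.63, 11.1 and 13.1 CPM against 0.952, 0.987 and 2.18 CPM in E7 grafts and rose by 2.98 ± 0.38 (adjusted p = 3.55e-05). Klre1, a lectin receptor that pairs with Klri1 and Klri2, was at 6.45, 6.23 and 8.52 CPM against 0.159, 0.549 and 0.804 CPM and rose by 3.67 ± 0.46 (adjusted p = 3.19e-05). For both genes the lowest library labelled CD1dKOxE7 was above the highest E7 library.

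The receptors outside the lectin family moved in the same direction. Ncr1 encodes NKp46, an activating receptor used to mark NK cells and some innate lymphoid cells. It was at 7.32, 11.4 and 9.82 CPM in grafts labelled CD1dKOxE7, at 1.59, 0.768 and 1.61 CPM in E7 grafts and at 0.758, 1.17 and 2.03 CPM in C57 grafts, and rose by 2.85 ± 0.37 over E7 grafts (adjusted p = 3.99e-05). Cd160, an immunoglobulin-type receptor of NK and cytotoxic T cells that binds HVEM (Tnfrsf14), was at 9.34, 8.98 and 13.0 CPM against 1.43, 0.768 and 1.03 CPM in E7 grafts and rose by 3.28 ± 0.28 (adjusted p = 2.74e-06). The libraries labelled CD1dKOxE7 again lay apart from the E7 libraries, which overlapped the C57 libraries for both genes. Il2rb, the beta chain shared by the receptors of IL-2 and IL-15, reached 94.95, 82.4 and 109 CPM. It was at 7.78, 8.56 and 12.1 CPM in E7 and at 7.84, 8.62 and 7.88 CPM in C57 grafts, and rose by 3.31 ± 0.29 over E7 grafts (adjusted p = 3.92e-06). Per kilobase of exon, Klrd1 and Il2rb were the highest members in this group (22.3 CPM per kb each), followed by Klrk1 (6.84), Ncr1 (6.17), Cd160 (3.95), Klrc1 (3.84), Klrb1c (3.81), Klre1 (2.02), Klrc2 (0.606) and Zbtb16 (0.444).

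Against C57 grafts of the same day the 9 receptors also rose, by 2.83 (Ncr1) to 4.08 (Klrc1) with adjusted p of 4.32e-07 to 0.000903, where 19.1% of all genes rose and 24.4% had higher, non-overlapping libraries. Both comparisons use the same 3 libraries labelled CD1dKOxE7, and Klrc1 and Klrc2 entered the test only through their high counts in these libraries. Zbtb16 was at 1.54, 3.91 and 1.59 CPM in grafts labelled CD1dKOxE7, at 3.65, 2.30 and 3.68 CPM in E7 grafts and at 4.05, 5.70 and 3.58 CPM in C57 grafts. Its libraries overlapped between donors. The differences were -0.40 ± 0.37 from E7 (adjusted p = 0.45) and -0.86 ± 0.36 from C57 grafts (adjusted p = 0.0672, and 0.0419 with all 24 libraries in one fit). Without replicate 2 of the grafts labelled CD1dKOxE7, the library at 3.91 CPM, both passed, at -1.03 from E7 (adjusted p = 0.0495) and -1.49 from C57 grafts (0.00441).

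**Figure D2:**
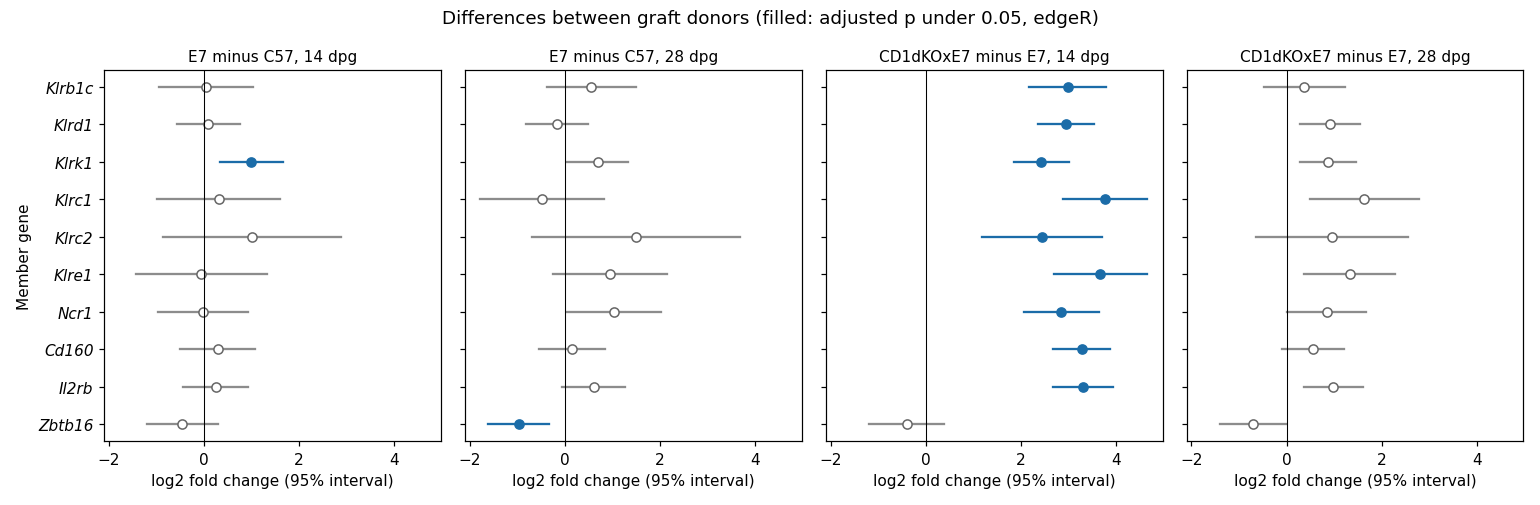
Log2 fold change of each member with its 95% interval in 4 comparisons of graft donors; filled points passed an adjusted p of 0.05 in edgeR. The 9 receptors stand at 2.43 to 3.77 in CD1dKOxE7 minus E7 at 14 dpg and at 0.37 to 1.63, none past the threshold, at 28 dpg.

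The reference promoters of these genes are shown because the receptors moved together at 14 dpg. RefSeq promoters (GRCm38.p6) were at hand for 7 of the 10 members, Klrb1c, Klrk1, Klrc1, Klrc2, Klre1, Ncr1 and Cd160. Below are the 250 bases before the start of 4 of them, on the gene's strand and 5′ to 3′. Capitals mark the core motif of RUNX factors, TGTGGT or its reverse complement ACCACA. The windows are chr7:4337465-4337714 (+) for Ncr1, chr6:129623865-129624114 (-) for Klrk1, chr6:129678974-129679223 (-) for Klrc1 and chr3:96829352-96829601 (-) for Cd160.
Ncr1: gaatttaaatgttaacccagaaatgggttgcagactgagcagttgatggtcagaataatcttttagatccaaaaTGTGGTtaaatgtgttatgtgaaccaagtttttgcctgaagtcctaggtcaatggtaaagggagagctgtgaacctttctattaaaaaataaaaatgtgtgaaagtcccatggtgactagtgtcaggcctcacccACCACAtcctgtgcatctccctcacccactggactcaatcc
Klrk1: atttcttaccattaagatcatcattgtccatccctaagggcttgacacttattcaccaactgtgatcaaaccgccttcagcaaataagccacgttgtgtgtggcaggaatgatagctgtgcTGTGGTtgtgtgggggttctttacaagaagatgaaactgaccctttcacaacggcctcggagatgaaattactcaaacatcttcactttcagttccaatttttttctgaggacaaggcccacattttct
Klrc1: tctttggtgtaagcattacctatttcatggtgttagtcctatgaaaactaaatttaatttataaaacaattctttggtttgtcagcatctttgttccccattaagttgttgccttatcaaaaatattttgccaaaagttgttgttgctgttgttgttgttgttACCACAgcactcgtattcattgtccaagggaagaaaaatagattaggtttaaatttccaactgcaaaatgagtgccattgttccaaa
Cd160: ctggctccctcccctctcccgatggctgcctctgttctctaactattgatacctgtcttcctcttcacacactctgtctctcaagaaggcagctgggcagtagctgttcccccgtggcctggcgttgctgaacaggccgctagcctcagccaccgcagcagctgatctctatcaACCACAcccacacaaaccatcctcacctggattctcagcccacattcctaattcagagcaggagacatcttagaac
TGTGGT occurred on either strand in the first promoter of 7 of the 7 members, and in 14.0% of 32851 promoters of the same length. Counted by promoter, as the 14.0% is, it occurred in 10 of 11 member promoters, some of which overlap each other. Of 3 other motifs searched on both strands, the ETS core AGGAAG was in the first promoter of 2 of 7 (29.5% of all promoters). The T-box site GGTGTGA (3.3%) and the STAT site TTCNNNGAA (7.0%) were in the first promoter of 0 of 7. Counting any promoter of a member, the ETS core was in 3 of 7 members, the T-box site in 1 and the STAT site in 1. No RUNX match overlapped a match of another motif. A match describes these letters and shows neither binding nor a cause. Runx3, a RUNX factor of cytotoxic lymphocytes, rose by 1.66 ± 0.21 in the same comparison (13.0 ± 2.09 to 41.4 ± 4.08 CPM, SD, n = 3, edgeR adjusted p = 3.11e-05). Tbx21, a T-box factor, rose by 4.41 (edgeR adjusted p = 1.73e-05). A part of either factor in the rise of the receptors was not tested.

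Other genes of the pathway were followed in lists written from general knowledge. Of 18 other tested lectin receptors listed for the NK gene complex, 16 rose in grafts labelled CD1dKOxE7 against E7 grafts at 14 dpg, with a median of 2.35. The 1 that fell was Klrg2 (-0.57, edgeR adjusted p = 0.0144), whose place in the complex was not checked. Of these 18, 7 entered the test only through the high counts of the 14 dpg grafts labelled CD1dKOxE7. Of the other 11, 9 rose and 1 fell, with a median of 1.96. Among the adaptors, effectors, other NK receptors, T cell and B cell markers below, 1 gene of each list entered in this way. The Ly49 receptor Klra7 rose by 3.82 ± 0.41 and Klri2, a partner of Klre1, by 3.12 ± 0.39. All 15 adaptor and proximal signalling genes rose (median 1.75), among them Lck (2.57 ± 0.25), Zap70 (2.55 ± 0.34) and Il2rg, the gamma chain that works with Il2rb (2.38 ± 0.24). All 11 tested cytotoxic effector genes rose (median 3.24), as the granule protease Gzmb, which went from 3.02 ± 1.96 to 54.1 ± 9.11 CPM. Among 9 lineage transcription factors 5 rose and 2 fell, and Tbx21, which encodes T-bet, rose by 4.41 ± 0.51. Of 14 SLAM, DNAM and other NK receptors 11 rose, Cd226 (DNAM-1) by 2.82 ± 0.34.

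The ligands of the receptors did not move as one group, as 3 of 8 rose and 2 fell. H2-T23, which encodes the Qa-1 ligand of the CD94 and NKG2 pairs, rose from 204 ± 46.2 to 534 ± 82.3 CPM. Tnfrsf14, the ligand of CD160, rose from 6.16 ± 1.31 to 28.1 ± 5.89 CPM. Ulbp1, a ligand of NKG2D, fell from 10.3 ± 2.23 to 3.48 ± 0.227 CPM (-1.56 ± 0.25 on the log2 scale, edgeR adjusted p = 0.000231). The receptor and this ligand thus differed in direction between the same libraries.

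Markers of other cell types moved with the receptors, and their part in the result was not tested. All 14 T cell markers rose, Cd3d by 3.14 ± 0.25 and Cd8a by 5.26 ± 0.50, and their summed level was 518 to 599 CPM in CD1dKOxE7 against 87.1 to 114 CPM in E7 grafts. Summed CPM of the 9 receptors was 37.3 to 43.3% of that of the T cell markers in the libraries labelled CD1dKOxE7 at 14 dpg and 21.4 to 38.4% in the E7 libraries. Of 8 macrophage and monocyte markers 7 rose (summed 1982 to 2575 against 584 to 961 CPM), and of 4 tested neutrophil markers 3 rose (1216 to 2377 against 69.3 to 294 CPM). Only 1 of 8 gamma delta T cell markers rose, and their sums overlapped (57.2 to 69.9 against 56.8 to 88.1 CPM). Of 6 tested B cell markers 2 rose (25.7 to 31.5 against 11.7 to 16.1 CPM), with Pax5 at 0 in the E7 grafts. Of 8 epidermal markers 2 fell and 1 rose, and Krt10, a keratin of differentiated keratinocytes, went from 26352 ± 10088 to 3802 ± 815 CPM.

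**Figure D3:**
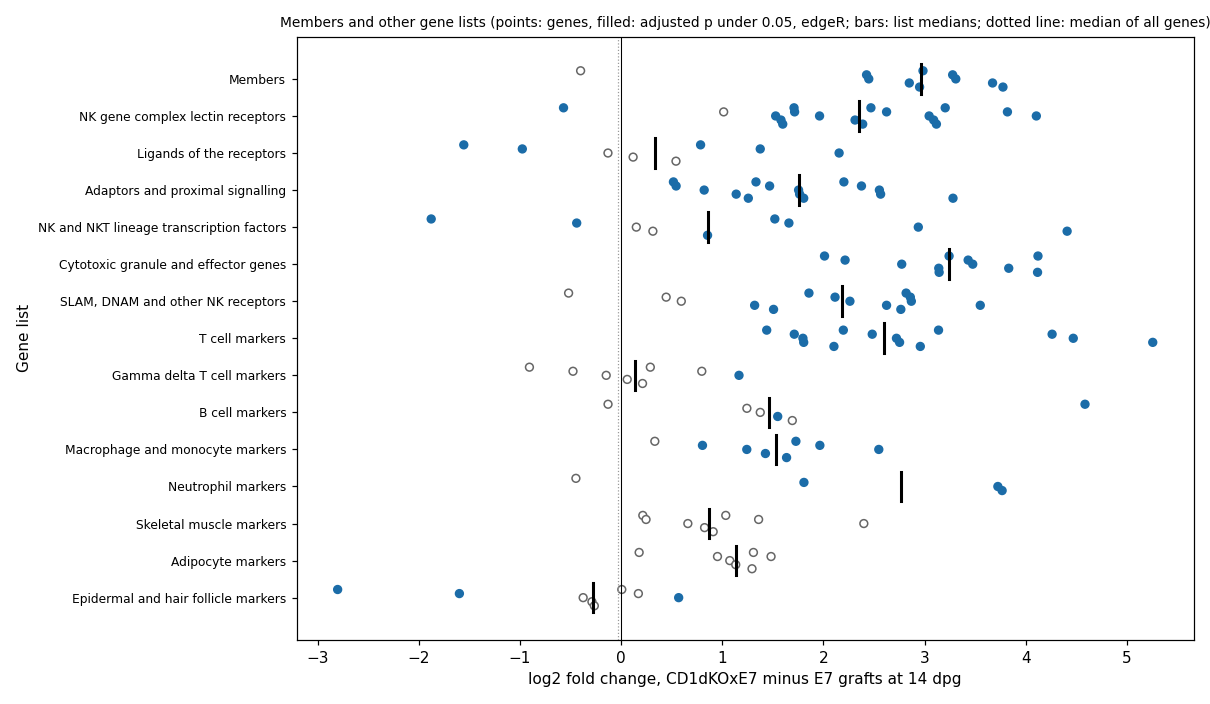
Log2 fold change of each tested gene (points, filled where the adjusted p was under 0.05 in edgeR) in CD1dKOxE7 minus E7 grafts at 14 dpg, for the members and 14 other lists; black bars are list medians and the dotted line is the median of all genes (-0.03). The members' median of 2.97 lies near those of T cell markers (2.60) and cytotoxic effectors (3.24), and gamma delta T cell markers have a median of 0.14.

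At 28 dpg the 9 receptors had higher values in grafts labelled CD1dKOxE7 than in E7 grafts, but none passed the test. Of the members, 0 of 10 passed in edgeR and 0 of 10 in DESeq2. At an unadjusted p under 0.05 in edgeR were 6 receptors and Zbtb16, which was lower (-0.71). The share of all genes at that unadjusted p is not given here, so this count has no measure beside it. Of all genes 0.21% passed, so the test called few genes of any kind here. Il2rb was at 22.3, 12.4 and 39.1 CPM in CD1dKOxE7 and at 10.2, 13.3 and 13.5 CPM in E7 grafts, a difference of 0.98 (95% interval 0.37 to 1.60, edgeR adjusted p = 0.172; 1.29 and 0.0198 without replicate 2 of the grafts labelled CD1dKOxE7). Klrk1 was at 17.6, 10.3 and 21.0 CPM against 7.58, 7.47 and 11.5 CPM (0.86, interval 0.27 to 1.46, adjusted p = 0.204). In both genes replicate 2 of the grafts labelled CD1dKOxE7 lay within the E7 range. Klrd1 was at 5.01, 4.18 and 10.0 CPM against 2.98, 3.10 and 3.87 CPM (0.92, interval 0.29 to 1.55, adjusted p = 0.205), and Klre1 at 2.07, 1.57 and 4.67 CPM against 1.12, 0.705 and 1.37 CPM (1.32, interval 0.37 to 2.28, adjusted p = 0.23). These 2 genes, Klrc1 and Cd160 did not overlap between the donors, where 8.56% of all genes had higher, non-overlapping libraries. Without replicate 3 the receptor differences were -0.18 (Klrb1c) to 1.26 (Klrc1), with 8 of 9 above 0 and none past the threshold. No gene of the other lists passed in this comparison, and the T cell markers summed to 111 to 254 CPM against 87.7 to 99.99 CPM, again highest in replicate 3. Without it 4 genes of the lists passed: Klra3 (1.46, adjusted p = 0.0421) and Cd8a (1.36, 0.0204) rose, and Cd1d1 (-2.26, 0.000352) and Jak3 (-0.53, 0.00994) fell.

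Against C57 grafts at 28 dpg, 6 of the 9 receptors rose and Zbtb16 fell, where 26.8% of all genes rose, 22.6% fell and 29% had higher, non-overlapping libraries. Il2rb rose by 1.59 ± 0.30 (C57 grafts 8.51, 7.98 and 7.96 CPM, adjusted p = 0.000568) and Klrk1 by 1.56 ± 0.29 (6.18, 4.90 and 5.44 CPM, adjusted p = 0.000472). Klre1 rose by 2.28 ± 0.50 (0.448, 0.560 and 0.698 CPM, adjusted p = 0.00149) and Ncr1 by 1.88 ± 0.43 (0.806, 0.980 and 0.698 CPM, adjusted p = 0.00204). For these 4 genes all libraries labelled CD1dKOxE7 were above all C57 libraries, and each passed without replicate 3 as well (1.11, 1.35, 1.71 and 1.40). Klre1, Klrc1 and Klrc2 entered the test only through grafts labelled CD1dKOxE7 of 14 or 28 dpg. Klrd1 (0.76 ± 0.29, adjusted p = 0.0406) and Klrc2 (2.45 ± 0.91, adjusted p = 0.0349) overlapped between the groups. Their calls ended without replicate 3, where Klrd1 was at 0.30 (adjusted p = 0.312) and Klrc2 at 2.05 (adjusted p = 0.104), without single C57 libraries (adjusted p = 0.0787 to 0.148) and, for Klrc2, without replicate 1 of the grafts labelled CD1dKOxE7 (0.127). The call of Klrd1 also ended with upper quartile normalization, with no low-count filter and in a fit of these 6 libraries alone (adjusted p = 0.0553 to 0.132). Klrb1c (0.93, adjusted p = 0.0782), Klrc1 (1.16, 0.0626, but 0.0368 without replicate 1 of the grafts labelled CD1dKOxE7) and Cd160 (0.71, 0.0695) did not pass. In the same comparison 9 of 14 T cell markers, 9 of 11 effectors and 5 of the 18 other listed lectin receptors rose, and 3 of 8 gamma delta T cell markers fell. Without replicate 3 the counts were 6, 7, 5 and 5, and 1 T cell marker and 1 effector fell. Their part in the result was not tested.

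From 14 to 28 dpg the 9 receptors fell in grafts labelled CD1dKOxE7, where 11.8% of all genes fell, and both days were on the same lane. Klrc1 and Klrc2 entered the test only through their high counts in the 14 dpg libraries, so the filter itself favoured a fall of these genes. The other receptors pass the count filter without that group. Cd160 fell from 10.4 ± 2.22 to 2.07 ± 0.522 CPM (a difference of -2.31 ± 0.26 on the log2 scale, adjusted p = 5.22e-05) and Klrc1 from 7.61 ± 2.66 to 1.27 ± 0.559 CPM (-2.57 ± 0.36, adjusted p = 0.000283). Klrd1 changed by -2.15 ± 0.26, Klrb1c by -2.04 ± 0.35, Il2rb by -1.94 ± 0.27, Klrc2 by -1.87 ± 0.55, Ncr1 by -1.62 ± 0.33, Klrk1 by -1.57 ± 0.26 and Klre1 by -1.34 ± 0.37. No library of 28 dpg reached the lowest library of 14 dpg for any of the 9, as for 17.2% of all genes. All 9 also fell without replicate 3 of 28 dpg, by 1.78 to 2.94. The calls of Klrc2 and Klre1 ended in a fit of these 6 libraries alone (adjusted p = 0.132 and 0.0804) and without other single libraries (adjusted p = 0.0595 to 0.0832). T cell markers (14 of 14), effectors (10 of 11), the other listed lectin receptors (12 of 18) and 3 of 4 neutrophil markers fell too (14, 10, 16 and, of 5 then tested, 3 without replicate 3 of 28 dpg), and their part in the result was not tested. Of these, 7 of the 18 lectin receptors, 1 effector and 1 T cell marker entered the test only through the 14 dpg libraries, so the filter favoured their fall.

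In C57 and E7 grafts no receptor passed between the days, where 22.6% and 17.2% of all genes did. Between 28 and 14 dpg 0 of 9 receptors passed in either donor, with differences of -0.85 to 0.55 in C57 and -0.43 to 1.01 in E7 grafts, and 0 of 9 had an unadjusted p under 0.05. DESeq2 called 0 of the 9 in both donors. The change of the CD1dKOxE7 minus E7 difference from 14 to 28 dpg was tested itself: 7 receptors fell, where 6.31% of all genes did, Cd160 the most (-2.72 ± 0.43, adjusted p = 0.00141) and Klrk1 the least (-1.56 ± 0.39, adjusted p = 0.0167). Klrc1 (-2.14 ± 0.77, adjusted p = 0.0775; 0.0297 without replicate 3 of the grafts labelled CD1dKOxE7 at 28 dpg) and Klrc2 (-1.50 ± 1.02, adjusted p = 0.361) did not pass. Both entered the test only through the 14 dpg grafts labelled CD1dKOxE7. Without replicate 3 of the grafts labelled CD1dKOxE7 at 28 dpg the 7 receptors that fell all passed too, at -1.77 (Klrk1) to -3.16 (Klrb1c). The calls of Klre1 and Ncr1 were lost without single libraries (adjusted p = 0.0501 to 0.0908), that of Klre1 in a fit of the groups compared alone (0.0606), and that of Klrk1 without replicate 3 of the E7 grafts at 28 dpg (0.0512).

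E7 against C57 grafts gave few calls among the members. At 14 dpg Klrk1 alone passed between E7 and C57 grafts (values above; 1.00 ± 0.31, adjusted p = 0.0254), where 15.8% of genes rose and 14.4% fell, so 1 of 10 members is below the share of all genes. The call ended without replicate 1 or 2 of the C57 grafts (adjusted p = 0.0969 and 0.0869) or replicate 1 or 3 of the E7 grafts (0.0655 and 0.0674). At 28 dpg none of the receptors passed, where 20.7% of genes rose and 14.7% fell. Klrk1 was higher by 0.69 (interval 0.05 to 1.33, adjusted p = 0.0867), Ncr1 by 1.04 (0.06 to 2.02, adjusted p = 0.0915) and Il2rb by 0.61 (-0.06 to 1.27, adjusted p = 0.141). Of the 9 receptors 5 had higher, non-overlapping libraries in E7, these 3 with Klrb1c (1.87 to 2.36 against 0.806 to 1.82 CPM) and Klre1 (0.705 to 1.37 against 0.448 to 0.698 CPM), as had 27.6% of all genes. In a fit of the 6 libraries alone the first 3 passed (adjusted p = 0.0328, 0.0344 and 0.0141). The change of the E7 effect from 14 to 28 dpg gave 0 calls among 10 members in edgeR, 0 at an unadjusted p under 0.05 and 0 in DESeq2, against 0.167% of all genes called.

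Ulbp1 rose in E7 skin in each setting, from 0.488 ± 0.574 to 23.8 ± 4.92 CPM in ear, from 2.88 ± 0.980 to 10.3 ± 2.23 CPM in grafts at 14 dpg and from 1.37 ± 0.461 to 6.36 ± 0.837 CPM at 28 dpg. H2-T23 rose by 0.61 ± 0.07 in ear, 0.66 ± 0.15 at 14 dpg and 0.73 ± 0.15 at 28 dpg. H60c, another ligand of NKG2D, rose in ear (48.2 ± 4.22 to 95.7 ± 5.65 CPM). Of the ligands tested, 3 of 7 rose and 1 fell in ear, 3 of 8 rose and 1 fell at 14 dpg, and 2 of 8 rose and 0 fell at 28 dpg, where 32.6, 15.8 and 20.7% of all genes rose. The shares in ear and at 28 dpg are near those of all genes.

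In ear skin only 4 members had enough counts to be tested, and 3 of them passed, where 65.3% of all 15720 genes did. Klrd1 was at 4.74, 4.96 and 5.42 CPM in C57 and at 3.66, 2.83 and 4.26 CPM in E7 ear and fell by 0.49 ± 0.19 on the log2 scale (adjusted p = 0.0402). Il2rb was at 6.38, 4.51 and 6.63 CPM in C57 and at 6.74, 8.00 and 11.9 CPM in E7 ear and rose by 0.61 ± 0.23 (adjusted p = 0.0389). The groups did not overlap for either gene, as for 71.1% of all genes, and both calls ended when single libraries were left out (adjusted p = 0.0512 to 0.182) and in the fit of all 24 libraries (0.114 and 0.102). That of Klrd1 ended in DESeq2 as well (0.109) and that of Il2rb with upper quartile normalization (0.0879). Klrk1 was at 4.91, 4.88 and 7.31 CPM in C57 and at 6.06, 7.22 and 10.8 CPM in E7 ear, which overlapped (0.49 ± 0.24, adjusted p = 0.101; 0.0277 and 0.0388 without single libraries). Of the 6 receptors that were not tested, Cd160 was at 0.654 to 1.22 CPM in the ear libraries and the other 5 were at 0.572 CPM or less. In the same comparison 6 of 8 gamma delta T cell markers fell, Trdc from 19.5 ± 2.36 to 7.17 ± 0.628 CPM, while 6 of 12 T cell markers rose and 3 fell. The summed T cell markers were 75.8 to 81.8 CPM in C57 and 85.3 to 109.6 CPM in E7 ear, and their part in these results was not tested.

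Klrb1c, Klre1 and Ncr1 were near the limit of detection in ear and higher in grafts. Klrb1c rose between ear and graft by 2.06 ± 0.55 (C57, 14 dpg), 2.10 ± 0.54 (C57, 28 dpg), 1.95 ± 0.57 (E7, 14 dpg) and 2.51 ± 0.53 (E7, 28 dpg), with adjusted p of 0.000743 to 0.00873. The call in E7 grafts at 14 dpg ended without their replicate 3 (adjusted p = 0.0853). In the 3 C57 ear libraries together there were 2 counts of Ncr1 and 1 of Klre1. C57 grafts held 31 counts of Ncr1 at 14 dpg, a ratio of 27.0 (95% interval 6.87 to 233, which covers counting error only), and 21 at 28 dpg (16.6, interval 4.06 to 146). For Klre1 the ratios were 22.7 (3.40 to 963) and 22.2 (3.37 to 937), from 13 and 14 counts. In E7 grafts against E7 ear Ncr1 rose by 2.91 ± 0.69 at 14 dpg and 3.29 ± 0.67 at 28 dpg. Klre1 had 1.65 ± 0.82 (adjusted p = 0.109) at 14 dpg and rose by 2.65 ± 0.72 at 28 dpg. Klrd1, Klrk1, Klrc1, Klrc2, Cd160 and Il2rb passed in none of these 4 comparisons. Of the 9 receptors 3 thus rose in C57 grafts at each day, 2 in E7 grafts at 14 dpg and 3 in E7 grafts at 28 dpg. Of all genes 30.6, 21.3, 21.9 and 23.8% rose (C57 14, C57 28, E7 14 and E7 28 dpg). The counts of receptors that rose are near these shares. In C57 grafts at 14 dpg Klrd1 passed in a fit of the 6 libraries alone (-0.60, adjusted p = 0.0356) and, with Klrk1, without replicate 3 (0.0399 and 0.042). In C57 grafts at 28 dpg Il2rb passed in such a fit (0.49, adjusted p = 0.0462), and in E7 grafts at 14 dpg Klrc2 passed without replicate 290 of the ear (0.0495). In fits of the 6 libraries alone Klrb1c, Klre1 and Ncr1 had too few counts to be tested, except Klrb1c and Ncr1 in E7 grafts at 28 dpg, where both passed. Both entered that fit only through the graft libraries (12 to 19 counts each, against 0 to 5 in E7 ear). Klrb1c, Klre1 and Ncr1 likewise entered the fit of all 24 libraries only through grafts, so the filter itself favoured a rise of these genes. Markers of other cells also differed between ear and graft, not all in the same direction, and their part in the result was not tested. The 8 macrophage and monocyte markers summed to 1357 to 2569 CPM (14 dpg) and 1449 to 1968 CPM (28 dpg) in C57 grafts against 564 to 655 CPM in C57 ear, and to 584 to 961 and 933 to 1320 CPM in E7 grafts against 425 to 609 CPM in E7 ear. The 7 B cell markers summed to 11.6 to 36.3 CPM in C57 and E7 grafts and to 2.85 to 6.44 CPM in ear, with Pax5 at 0 in ear and in E7 grafts of 14 dpg. The 6 neutrophil markers were higher in C57 grafts (23.6 to 117 CPM) than in C57 ear (6.91 to 16.3 CPM). In E7 skin they were not: they summed to 112 to 358 CPM in ear and 69.3 to 294 CPM in grafts at 14 dpg. In E7 grafts at 28 dpg they summed to 49.5 to 72.9 CPM, below all E7 ear libraries. The summed T cell markers of C57 and E7 grafts (71.1 to 114 CPM) overlapped those of ear.

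Zbtb16 had its highest level in C57 ear and its lowest in grafts labelled CD1dKOxE7 at 14 dpg. It was at 28.5, 35.7 and 32.9 CPM in C57 ear and at 8.95, 9.85 and 7.199 CPM in E7 ear, groups far apart, and fell by 1.90 ± 0.13 on the log2 scale (adjusted p = 3.88e-07). C57 grafts were lower than C57 ear at both days: the difference was -2.87 ± 0.27 at 14 dpg (adjusted p = 5.91e-08) and -1.25 ± 0.24 at 28 dpg (adjusted p = 0.000390), where its libraries were at 15.5, 13.7 and 11.3 CPM. Of all genes 22% and 18% fell in these comparisons. Zbtb16 rose from 14 to 28 dpg in C57 grafts (1.63 ± 0.32, adjusted p = 0.00201), where 8.4% of genes rose. In E7 grafts, at 9.44, 5.50 and 5.50 CPM on day 28, the rise was 1.11 ± 0.34 (adjusted p = 0.0352), where 7.68% of genes rose, a call lost without replicate 1 or 2 of either day (adjusted p = 0.0515 to 0.168). Grafts labelled CD1dKOxE7 were at 3.48, 4.05 and 5.21 CPM on day 28, and their difference of 0.81 ± 0.36 did not pass (adjusted p = 0.115; 1.44 and 0.0111 without replicate 2 of 14 dpg, 0.65 and 0.241 without replicate 3 of 28 dpg).

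At 28 dpg Zbtb16 fell in E7 against C57 grafts (-0.97 ± 0.30, adjusted p = 0.0215; 0.0798 to 0.0859 without replicate 1 of C57 or replicate 2 or 3 of E7) and in grafts labelled CD1dKOxE7 against C57 grafts (-1.67 ± 0.32, adjusted p = 0.000508; -1.83 without replicate 3). CD1dKOxE7 minus E7 was -0.71 ± 0.33 (adjusted p = 0.385; -0.87 and 0.229 without replicate 3). E7 ear fell to E7 grafts of 14 dpg by 1.44 ± 0.29 on the log2 scale (adjusted p = 0.000553), where 21.3% of all genes fell, and at 28 dpg the difference was -0.34 ± 0.27 (adjusted p = 0.306). The E7 effect on Zbtb16 was less negative in grafts of 14 dpg than in ear, by 1.43 ± 0.41 (adjusted p = 0.0246; 0.0533 to 0.0779 without 5 of the 12 libraries in turn), where 4.02% of genes changed upward. Skeletal muscle and adipocyte markers differed between the same groups, and their part in the result was not tested. The 8 muscle markers summed to 3415 to 6188 CPM in C57 ear, 1110.4 to 1689 in E7 ear, 257 to 923 and 1613 to 3591 in C57 grafts at 14 and 28 dpg, 110.1 to 715 and 915 to 1031 in E7 grafts, and 436 to 1704 and 339 to 709 in grafts labelled CD1dKOxE7. All 8 muscle and all 7 adipocyte markers fell with Zbtb16 in E7 ear, and 7 of 8 muscle markers and 1 of 7 adipocyte markers rose with it from 14 to 28 dpg in C57 grafts. In grafts labelled CD1dKOxE7 against C57 grafts at 28 dpg 6 of 8 muscle markers fell, and 6 without replicate 3. The muscle sum did not always go with Zbtb16. In grafts labelled CD1dKOxE7 its mean was 959 CPM at 14 dpg and 492 CPM at 28 dpg, with Zbtb16 at 2.35 and 4.25 CPM. In E7 grafts at 14 dpg it was 459 CPM, with Zbtb16 at 3.21 CPM. The muscle sums of these libraries overlapped.

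Over the 18 graft libraries each receptor followed the mean profile of the 10 members, with Pearson r of 0.85 (Klrc2) to 0.98 (Il2rb), while Zbtb16 had r of -0.48. In the 15 libraries other than the 14 dpg grafts labelled CD1dKOxE7 the receptors had r of 0.53 (Klrc2) to 0.93 (Klre1) and Zbtb16 of 0.03. Between receptors r was as low as 0.22 there (Klrc2 with Cd160). These values describe libraries that share donors, days and lanes, and the profile holds the genes themselves. Among the other genes of at least 1 CPM, the 8 most like the profile were Rasal3 (r = 0.99), AW112010 (0.98), Ptprc (0.98), Klra2 (0.98), Srgn (0.97), Ikzf1 (0.97), Irf8 (0.97) and Birc3 (0.97). Ptprc encodes CD45 of all leukocytes. In the 15 libraries without grafts labelled CD1dKOxE7 of 14 dpg their r was 0.85 (Srgn) to 0.93 (AW112010).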

How the data were processed

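The authors deposited whole-number read counts per Entrez gene, 1 file per library. Per the submitters' processing notes reads were handled with bcl2fastq 1.8.4, FastQC and Trimmomatic and placed on mm10. Per the labels' protocols RNA was taken with Trizol and RNeasy columns and made into TruSeq RNA v2 libraries. Aligner, counter, annotation and strand are not given in the sources used here. Of 27180 features 25275 matched the RefSeq gene table (GRCm38.p6) and took its symbols. The list symbols Raet1a, Raet1b, Raet1c, H60a and Zfp683 had no match.

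Counts were tested with edgeR 4.0.16 (R 4.3.3, limma 3.58.1): filterByExpr (minimum count 10, minimum total 15), TMM, robust quasi-likelihood F tests, and Benjamini-Hochberg adjustment over all genes of a fit at 0.05. Ear (6 libraries), grafts (18) and, for graft against ear, all 24 were fitted. The SE is the log2 fold change over the square root of F. CPM used 1 TMM scale for all 24 libraries. Figures used matplotlib 3.10.9, and tables pandas 2.3.3, scipy 1.17.1 and numpy 2.4.6 under Python 3.11.15. The procedure was tested on simulated data.

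Members and lists were chosen with earlier results of these data known. All members were named, with up to 3 genes of a list past the threshold by smallest adjusted p, Cd1d1, and the 8 genes most like the members' mean profile. Krt14, Krt10, the transgene, the genes given beside the promoters and the further list genes named outside that rule were chosen after their values were seen. Cd247 is in both the T cell and the adaptor lists. Other settings tried were DESeq2 1.42.0, no low-count filter, scaling by RLE or by the upper quartile, fits of only the groups compared or of all 24 libraries, a replicate block, and each library left out in turn. In 1 of 15 pairs of graft groups, C57 and CD1dKOxE7 at 14 dpg, the deviations of all 3 same-numbered libraries had r over 0.1 (0.11 to 0.19). The labels name no shared animal or day, so whether same-numbered libraries are paired is not known.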

Additional observations from a re-analysis of the deposited data

Results flagged for a closer look

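The difference between grafts labelled CD1dKOxE7 and E7 grafts was itself smaller at 28 than at 14 dpg for 7 receptors. This was tested by the interaction of donor and day in edgeR, where 6.31% of all genes fell. On the log2 scale the change was -2.62 in Klrb1c (adjusted p = 0.00827), -2.03 in Klrd1 (0.00583), -1.56 in Klrk1 (0.0167) and -2.35 in Klre1 (0.0342). It was -2.01 in Ncr1 (0.0252), -2.72 in Cd160 (0.00141) and -2.33 in Il2rb (0.003). Of 19 alternatives the call was lost in 9 for Klre1, in 6 for Ncr1 and in 1 for Klrk1. For Zbtb16 the E7 effect was higher in grafts of 14 dpg than in ear by 1.43 (adjusted p = 0.0246), as tested by the interaction of donor and tissue. There 4.02% of all genes changed upward, and the call was lost in 5 of 17 alternatives.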

How the results depend on the processing

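Members called were counted in 227 alternatives over 17 comparisons, and 201 counts lay within 1.5 times the reported one. Of 821 alternatives for single members that had passed, 758 kept the call, 63 lost it and 0 changed sign. The 9 receptors of grafts labelled CD1dKOxE7 against E7 grafts at 14 dpg passed in every alternative, with 9 to 10 members called without single libraries. In ear 3 members passed, 1 in the fit of all 24 libraries and 1 to 3 without single libraries. In E7 against C57 grafts 1 passed at 14 dpg (0 to 1 without single libraries) and 1 at 28 dpg (0 to 1, with 2 under the replicate block and 4 in a fit of the groups compared alone). For grafts labelled CD1dKOxE7 against E7 grafts at 28 dpg 0 passed (0 to 1, Il2rb without replicate 2 of the grafts labelled CD1dKOxE7). For E7 grafts between days and for the E7 effect at 14 dpg against ear 1 passed (0 to 1 in each). In a fit of the groups compared alone the 4 members called in C57 grafts against ear became 2 at 14 dpg and 2 at 28 dpg, and the 3 in E7 grafts at 14 dpg became 1, as 3, 3 and 2 of the members called had too few counts to be tested there.

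In 14 of 15 pairs of graft groups the deviations of same-numbered libraries were not all correlated at r over 0.1, a cut that cannot exclude pairing. Over 45 same-numbered pairs of libraries the correlation of deviations was -0.35 to 0.29, over 0.1 in 10 pairs, and 16 pairs were the best match of their number. The exception, C57 grafts and grafts labelled CD1dKOxE7 at 14 dpg, kept its 9 members called under the block. With the replicate block Klrk1 passed in E7 against C57 grafts at 28 dpg (adjusted p = 0.0215), Klrb1c (0.0407) and Klrc1 (0.038) in grafts labelled CD1dKOxE7 against C57 grafts at 28 dpg, and Klrc1 in the change between days (0.0437).

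Over all genes, calls at 28 dpg between CD1dKOxE7 and E7 grafts went from 34 to 65 with the block, 125 with all 24 libraries, 241 in DESeq2, 3 in the groups compared alone and 4 to 304 without single libraries (304 without replicate 3 of the grafts labelled CD1dKOxE7). The change of this difference between days went from 2080 to 1314 in the groups compared alone, 1240 without E7 replicate 1 of 14 dpg, and 1099, 1130 and 3956 without CD1dKOxE7 replicates 1, 2 and 3 of 28 dpg. The change of the E7 effect between days went from 27 to 62 with all 24 libraries, 155 in DESeq2, 55 in the groups compared alone and 12 to 72 without single libraries (12 without C57 replicate 3 of 28 dpg, 72 without E7 replicate 3 of 14 dpg). Calls between days went from 3660 to 1308 (groups alone), 2264 and 2022 (without replicate 1 or 2 of 28 dpg) in CD1dKOxE7 and from 2778 to between 1211 and 1480 in E7 grafts without replicate 1 or 2 of either day. E7 against C57 grafts at 14 dpg went from 4889 to 3043 without C57 replicate 3, and the E7 effect at 14 dpg against ear from 2098 to 1394 without C57 replicate 1. Upper quartile normalization moved the share of rises among calls from 49.96% to 39.1% in ear, 58.4% to 47.9% (E7) and 54.2% to 43.9% (CD1dKOxE7) against C57 grafts at 28 dpg, 37.1% to 52.2% in C57 grafts between days and 31.8% to 55.2% in the E7 effect at 14 dpg against ear. It moved the median of all genes to -0.12 in ear and from -0.05 to 0.06 in that E7 effect. Without a low-count filter the share went from 58.1% to 48.0% in C57 grafts of 14 dpg against ear. The cause of these shifts was not tested. Library totals limit members with few counts, Klrc1, Klrc2 and Klre1 above all.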

Other observations

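Genes that work with the receptors were also compared between E7 and C57 skin. In ear 65.3% of all genes passed, and the shares of the lists lay near it. There 4 of 7 tested lineage transcription factors rose and 1 fell. Nfil3, needed for NK cell development, rose from 8.14 ± 0.363 to 18.7 ± 2.73 CPM (SD, n = 3 libraries) and Ikzf2 (Helios) from 51.0 ± 3.11 to 76.4 ± 3.06 CPM. Of 11 tested SLAM, DNAM and other NK receptors 3 rose and 3 fell: Il12rb2, a chain of the IL-12 receptor, rose from 16.7 ± 1.96 to 85.3 ± 12.7 CPM, and Itga1 (CD49a) fell from 14.3 ± 1.64 to 5.97 ± 1.21 CPM. Of 8 tested cytotoxic effectors 3 rose and 3 fell. The protease Gzmb rose from 0.388 ± 0.196 to 4.73 ± 1.74 CPM, and the chemokine Xcl1 fell from 3.84 ± 0.558 to 1.02 ± 0.262 CPM.

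In grafts the effectors were the list with the most calls between E7 and C57 at 28 dpg. Of 11 tested effectors 5 rose and 0 fell there (median log2 fold change 0.82, against 0.01 over all genes), where 20.7% of all genes rose. Gzmc rose from 5.59 ± 0.980 to 13.2 ± 3.00 CPM and Gzmb from 1.37 ± 0.749 to 3.88 ± 1.15 CPM. At 14 dpg 1 of the 11 rose, the death ligand Tnfsf10 (14.1 ± 2.03 to 27.7 ± 8.92 CPM). Lck, the proximal T cell kinase, rose at both days, by 0.90 ± 0.28 and 0.78 ± 0.28 on the log2 scale. The signalling adaptors of NK and myeloid cells Tyrobp (DAP12) and Fcer1g fell at 14 dpg, by 0.89 ± 0.29 and 0.73 ± 0.24. In the same comparison 6 of 8 macrophage and monocyte markers fell and 1 rose, with sums of 584 to 961 CPM in E7 and 1357 to 2569 CPM in C57 grafts, and their part in the fall of the adaptors was not tested. The difference of these list genes between days was not tested here.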
